A study of Homo sapiens with 14 samples.

Results

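The small nuclear RNA (snRNA) genes examined here are those for U1 (RNU1-1), U2 (RNU2-1), U4 (RNU4-1 and RNU4-2), U5 (RNU5A-1 and RNU5B-1), U4atac (RNU4ATAC), U11 (RNU11) and U12 (RNU12). These 9 genes, of 58419 in the GRCh38.p14 gene table on chromosomes 1 to 22 and X, were chosen by name because RNA polymerase II transcribes them, as a contrast to genes of RNA polymerase III. The material was T47D, a breast cancer cell line with oestrogen and progesterone receptors, studied by ChIP-seq, in which DNA fragments bound by a protein are pulled down with an antibody and sequenced. Cells were given ethanol, the vehicle, or the hormone progesterone (P4) over 1 h, and the antibodies used bound the progesterone receptor (PR) or POLR3A, which forms part of the catalytic core of RNA polymerase III. Each of the 4 groups had 3 replicate libraries but a single list of called regions, and each treatment also had 1 pooled input library, so no value per replicate was used here and no difference could be set against a spread between replicates. The labels name no genetic change in any group, and a single cell line limits the study as a model.

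The snRNAs are the RNA cores of the spliceosome, which removes introns from messenger RNA precursors. U1, U2, U4 and U5 act with U6 on most introns, while U11, U12 and U4atac act with U5 and U6atac on a rare class of introns, the minor one. The genes of most snRNAs share an upstream promoter with a distal element, often holding an octamer that POU2F1 (OCT-1) binds, and a proximal sequence element bound by the SNAPc complex. The same proximal element with an added TATA box, as at the U6, U6atac and 7SK genes, directs RNA polymerase III instead.

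The 4 lists held 29161 POLR3A regions under vehicle, 47904 under P4, 38933 PR regions under vehicle and 111515 under P4. Each region carries the authors' fold enrichment and −log10 q, the negative decimal logarithm of its q-value, and these describe a region within its own list only. The percentile printed below is the percentage of regions of that list whose −log10 q was no higher. The files give no read counts, so depth is unknown. A gene counted as occupied when a region reached its body or the 100 bp on either side. The gene table carries no strand, so positions are given from the lower-coordinate end of a gene, and distances of summits, the highest points of regions, from its midpoint without sign.

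POLR3A regions lay over 8 of the 9 genes under vehicle and over the same 8 under P4. Of all 10519 genes of at most 500 bp, 6.54% had a POLR3A region under vehicle and 7.11% under P4, and 5.5% had one under both. PR regions lay over 3 of the 9 genes under vehicle, RNU1-1, RNU2-1 and RNU4-1, and over 7 under P4, against 2.56% and 6.49% of the genes of at most 500 bp. The 4 genes with PR in the window under P4 only were RNU4-2, RNU4ATAC, RNU11 and RNU12. That pattern was found at 4.3% of the short genes. No gene had PR there under vehicle only, as 0.361% of the short genes did. At RNU4-2, RNU11 and RNU12 the P4 region shared bases with PR called under vehicle 339, 283 and 247 bp from the gene. For these genes "P4 only" thus describes the window and not the wider locus. RNU4ATAC had no PR region within 5 kb under vehicle. Within the window RNU5B-1 had POLR3A without PR, and RNU5A-1 had no region in any list. The 3 genes with PR under vehicle were in all 4 lists, as were 1.45% of the short genes.

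**Figure D1:**
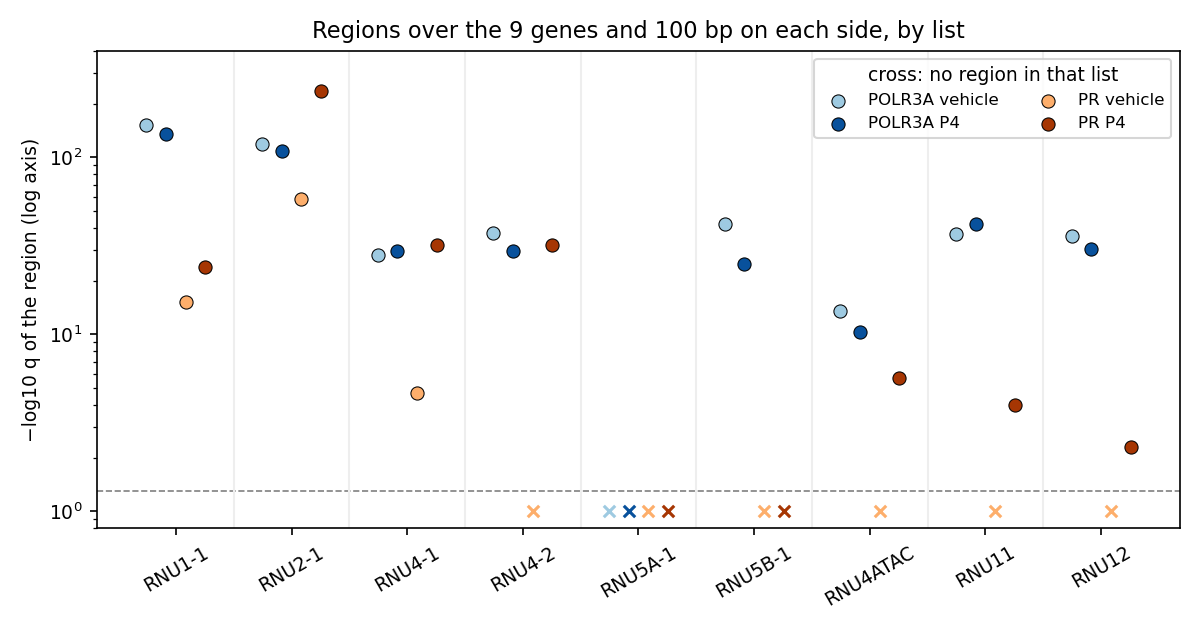
−log10 q (log axis) of the strongest region over each of the 9 genes and 100 bp on each side, 1 point per gene and list, with crosses where a list had no region and a dashed line at the lowest −log10 q of the lists, 1.3. POLR3A points are highest at RNU1-1 and RNU2-1, RNU2-1 under P4 has the highest PR point at 237, and RNU5A-1 has crosses only.

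Sequence was at hand for 0 of the 9 genes themselves. One RefSeq promoter window (GRCh38.p14), that of SIRT4, a mitochondrial sirtuin gene, lies in the stretch between RNU4-2 and RNU4-1 at chr12:120291939-120292238, plus strand, and is shown because regions of both antibodies under P4 span it. All 300 bases of it fell inside the PR and POLR3A regions of the P4 lists, 134 inside a POLR3A region under vehicle and 0 inside a PR region under vehicle. Capitals mark matches on either strand to the octamer ATGCAAAT and to ACCNTNA, a short form of the proximal element chosen for this search; no 2 of the marked matches overlap.
SIRT4 promoter window: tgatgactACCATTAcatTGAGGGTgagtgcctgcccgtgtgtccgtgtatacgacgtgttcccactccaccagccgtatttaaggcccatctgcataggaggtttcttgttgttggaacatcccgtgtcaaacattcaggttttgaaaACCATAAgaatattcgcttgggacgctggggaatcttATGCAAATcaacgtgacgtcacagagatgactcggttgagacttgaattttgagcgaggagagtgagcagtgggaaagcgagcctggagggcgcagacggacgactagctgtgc
The octamer begins at base 187 of the window, 222 bp beyond the nearer end of RNU4-2, and 1.77% of the 34961 RefSeq promoter windows of 300 bases held it on either strand. The 3 matches to ACCNTNA begin at bases 9, 19 and 150, which is 44, 54 and 185 bp from RNU4-2, and the match at base 19 is on the minus strand. Such matches are common, with 27.0% of the promoter windows holding at least 1. The window held no match to TATATA (in 4.0% of promoter windows), TATAA (20.4%), the SP1 motif GGGCGG (45.0%) or the inverted-repeat progesterone response element (0.392%), again on either strand. These matches describe letters in this window only.

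Among the snRNAs of the major spliceosome, U1 pairs with the 5′ splice site at the start of assembly. RNU1-1 (chromosome 1, 16514122 to 16514285, gene ID 26871) lies in no protein-coding gene, and the nearest one is 24701 bp away. Its POLR3A region reached a −log10 q of 153 and a fold of 26.3 under vehicle, the highest of the 9 genes in that list, and 136 with a fold of 19.1 under P4. Its PR region had a −log10 q of 15.2 and a fold of 5.82 under vehicle, and 23.9 and 6.10 under P4. The summits of all 4 regions lay inside the 164-bp gene, at 46 and 34 bp from its lower end for POLR3A and 50 and 8 bp for PR. The PR and POLR3A summits were 4 bp apart under vehicle and 26 bp apart under P4.

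U2 pairs with the branch point. RNU2-1 (chromosome 17, 43233790 to 43233977, gene ID 6066) lies 2521 bp from CCDC200, the nearest protein-coding gene. Its POLR3A −log10 q came to 119 under vehicle and 108 under P4, with folds of 14.3 and 13.3. PR had a −log10 q of 58.1 and a fold of 7.96 under vehicle, at percentile 93.0 of the list, and 237 with a fold of 22.7 under P4, at percentile 98.9. RNU2-1 thus had the strongest PR region of the 9 genes in each PR list. The 4 summits fell inside the gene, 5.5 to 20.5 bp from its midpoint, and the PR and POLR3A summits were 6 bp apart under vehicle and 41 bp apart under P4. Within 5 kb of the gene there were 8 and 7 POLR3A regions and 7 and 8 PR regions, more than around any other of the 9 genes. The strongest of them in the PR P4 list was a neighbouring region with a −log10 q of 250, over a further annotated U2-sized snRNA gene.

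RNU2-1 is 1 of a row of near-identical genes, and reads from such copies cannot be assigned to single genes with confidence. The table lists 13 unnamed snRNA genes of like length within 150 kb of RNU2-1. All 13 had a POLR3A region in both lists and a PR region under vehicle, and 12 had a PR region under P4. Their PR regions under vehicle had a median −log10 q of 72.8, ranging from 2.85 to 115, and those under P4 one of 234, ranging from 75.3 to 253. RNU2-2, a U2 gene on another chromosome, had PR regions of 48.8 (vehicle) and 155 (P4) and POLR3A values of 111 and 114. RNU2-1 lay within the range of its neighbours in all 4 lists. The neighbour with the PR value of 2.85 under vehicle was the 1 without a PR region under P4, and it also had the lowest POLR3A values, 7.02 and 9.33.

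U4 chaperones U6 until the spliceosome is activated. The genes RNU4-2 (chromosome 12, 120291759 to 120291903, gene ID 26834) and RNU4-1 (120293093 to 120293237, gene ID 26835) start 1334 bp apart. RNU4-1 lies inside the span of SIRT4, and RNU4-2 overlaps the lower-coordinate end of that span. Under vehicle each U4 gene had its own POLR3A region, with a −log10 q of 27.9 and a fold of 10.0 at RNU4-1 and of 37.2 and 12.6 at RNU4-2, and both summits lay inside the genes. Under P4 a single POLR3A region of 2319 bp covered both genes, with a −log10 q of 29.4, a fold of 9.67 and its summit 21 bp below the lower end of RNU4-1. PR differed between the genes under vehicle. RNU4-1 had a PR region of 358 bp with a −log10 q of 4.68 and a fold of 4.01, while the nearest PR region to RNU4-2 was 339 bp away, with a −log10 q of 2.23. Under P4 a single PR region of 2684 bp covered both genes, with a −log10 q of 32.0 and a fold of 10.1. Its summit lay 255 bp from the midpoint of RNU4-2, outside both genes and 1496 bp from the POLR3A summit. The pair therefore adds 2 genes but 1 region to the P4 counts of each antibody, so that the 7 genes with PR under P4 rest on 6 regions and the 8 with POLR3A on 7.

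U5 holds the exons in place during splicing and serves both spliceosomes. RNU5A-1 (chromosome 15, 65296051 to 65296167, gene ID 26831) and RNU5B-1 (65304677 to 65304793, gene ID 26832) start 8626 bp apart, 9168 and 17794 bp from PARP16, the nearest protein-coding gene. Neither gene body was touched by a region of any list. At RNU5B-1 the POLR3A region began 83 bp beyond the higher-coordinate end under vehicle, with a −log10 q of 42.1 and a fold of 13.6, and 79 bp beyond it under P4, with 24.8 and 9.19. Its summits lay 302 and 306 bp from the midpoint of the gene. The nearest PR regions lay on the same side of RNU5B-1, 187 bp away under vehicle with a −log10 q of 7.28. Under P4 the distance was 145 bp and the −log10 q 33.1. Each lay wholly inside the POLR3A region of the same treatment, so only the window sets RNU5B-1 apart as a gene without PR.

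RNU5A-1 showed a like layout at lower scores. A POLR3A region lay 332 bp beyond its higher-coordinate end under vehicle, with a −log10 q of 7.21 and a fold of 5.32, and 241 bp beyond it under P4, with 6.34 and 4.71. A PR region lay 297 bp away on that side under P4, with a −log10 q of 3.96, while the nearest PR region under vehicle was 2724 bp away. RNU5A-1, the 1 gene without a call, thus had regions of 3 lists just outside the 100-bp window.

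Of the minor spliceosome's RNAs, U11 and U12 recognise the 5′ splice site and the branch point, and U4atac is the partner of U6atac. RNU4ATAC (chromosome 2, 121530880 to 121531009, gene ID 100151683) lies inside the span of CLASP1. It had the weakest POLR3A regions of the 8 genes, with a −log10 q of 13.5 and a fold of 7.18 under vehicle and of 10.3 and 5.04 under P4, and both summits fell inside the gene. No PR region lay within 5 kb of it under vehicle. Under P4 a PR region with a −log10 q of 5.67 and a fold of 4.06 began 49 bp beyond its higher-coordinate end.

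RNU11 (chromosome 1, 28648600 to 28648734, gene ID 26824) lies 331 bp from TAF12, which encodes a subunit of the general factor TFIID. POLR3A had a −log10 q of 36.9 and a fold of 12.8 under vehicle and of 41.9 and 12.6 under P4, with summits 1 and 22 bp from the midpoint of the gene. Its PR region under P4 covered the gene body, but with a −log10 q of 3.96, a fold of 3.57 and a summit 534 bp from the midpoint. The PR summit was 556 bp from that of POLR3A. Under vehicle the nearest PR region was 283 bp away, with a −log10 q of 2.32.

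RNU12 (chromosome 22, 42615244 to 42615393, gene ID 267010) lies 361 bp from POLDIP3. Its POLR3A region had a −log10 q of 35.7 and a fold of 12.5 under vehicle and of 30.3 and 10.3 under P4, with summits inside the gene. No region of any list reached the 300-base promoter window of POLDIP3. PR under P4 had the lowest −log10 q of the 7 genes called in that list, 2.30, with a fold of 2.94 and percentile 12.6, and its summit was 33 bp from that of POLR3A. Under vehicle the nearest PR region was 247 bp away, with a −log10 q of 4.24.

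**Figure D2:**
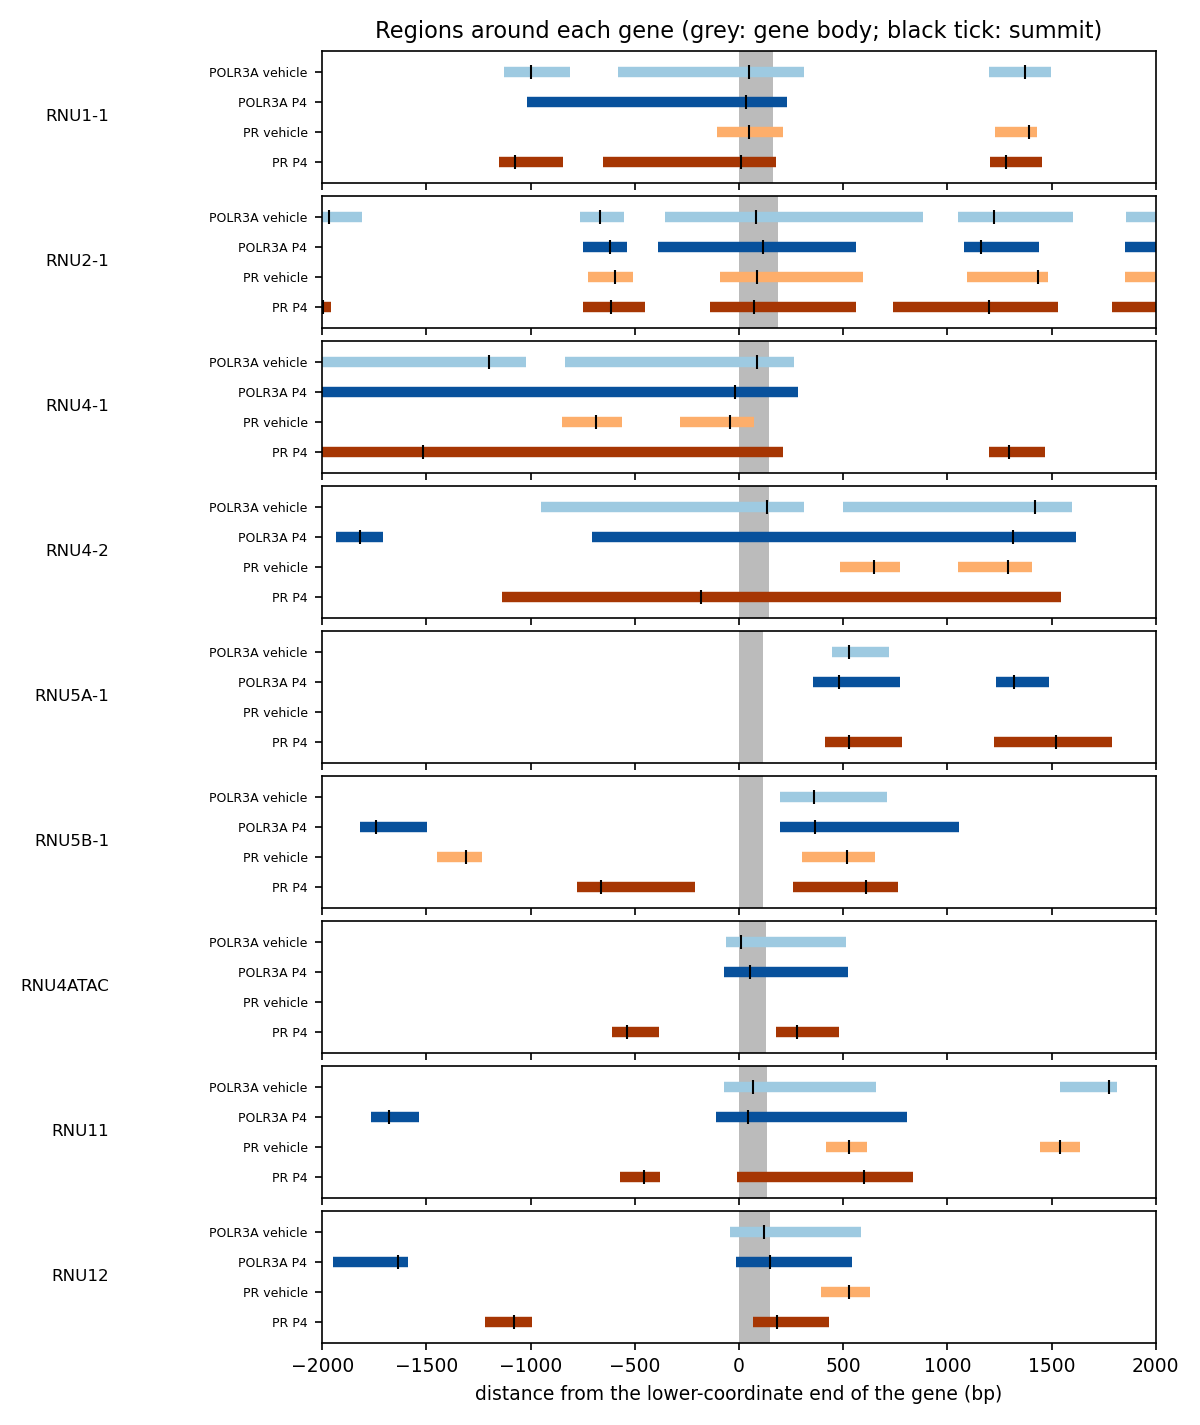
Regions of the 4 lists (coloured bars) within 2000 bp of the lower-coordinate end of each gene, with the gene body in grey and summits as black ticks, and distance in bp on the x axis. POLR3A bars cover the body of every gene but the U5 pair, where the nearest POLR3A bars begin beyond the higher end. A single P4 bar of each antibody spans RNU4-2 and RNU4-1.

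Set side by side, POLR3A regions ranked high at all 8 genes and PR regions did so at some. In the POLR3A lists the 8 genes, which had 8 regions under vehicle and 7 under P4 with the region of the U4 pair counted at both genes, had percentiles from 94.1 to 99.2 under vehicle and 94.8 to 99.5 under P4, with medians of 98.1 and 98.5. In order of −log10 q under vehicle the genes ran RNU1-1, RNU2-1, RNU5B-1, RNU4-2, RNU11, RNU12, RNU4-1 and RNU4ATAC, and with 1 list per group no error tells neighbours in that order apart. PR regions ranged from percentile 41.0 to 93.0 under vehicle, with a median of 77.2 over 3 genes, and from 12.6 to 98.9 under P4, with a median of 85.3 over 7 genes. Those 7 genes had 6 PR regions. The region of the U4 pair, at percentile 88.3, was counted at both genes, which raises that median. The POLR3A regions were broad, with a median width over the 8 genes of 812 bp under vehicle and 935 bp under P4, against 280 and 276 bp for all regions of those lists, and the region at each of the 8 genes was wider than its list's median. Such widths were not particular to these genes. At the polymerase III genes with upstream promoters described below, the medians were 792 and 820 bp. At 11 further small RNA genes of polymerase II they were 930 and 668 bp. POLR3A summits lay inside the gene at 7 of 8 genes under vehicle and 5 of 8 under P4. PR summits did so at 2 of 3 genes and 2 of 7.

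The PR count depended on how close a region had to be. With 500 bp on each side in place of 100 bp, all 9 genes had POLR3A under both treatments, and PR was at 7 genes under vehicle and 9 under P4. Of the short genes, 7.99% had POLR3A within that distance under vehicle and 8.96% under P4, while PR was there at 4.45% and 10.7%. The 4 genes that joined under vehicle, RNU4-2, RNU5B-1, RNU11 and RNU12, had their nearest PR region 187 to 339 bp from the gene body. The PR P4 list is 2.86 times as long as the vehicle list, and cut to the same length by −log10 q it held 4 of the 9 genes against 3 under vehicle. Those 4 included RNU4-1 and RNU4-2, which shared 1 PR region under P4. The shortened list reached 2.6% of the short genes and the vehicle list 2.56%.

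**Figure D3:**
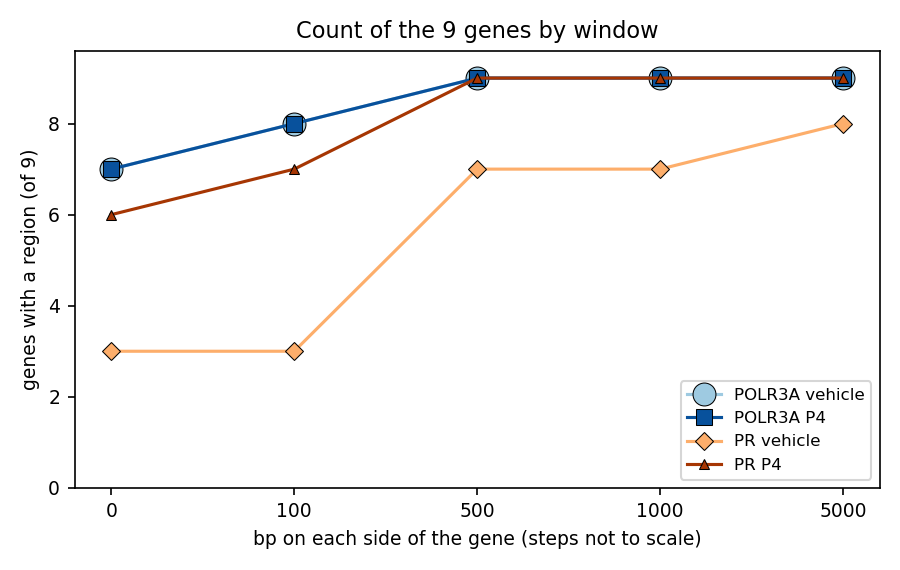
Number of the 9 genes with a region (y axis) for windows of 0 to 5000 bp on each side of the gene (x axis, steps not to scale), 1 line per list. From 500 bp on, both POLR3A lists and the PR P4 list reach all 9 genes, and the PR vehicle line goes from 3 at 100 bp to 7 at 500 bp and 8 at 5000 bp. Of the short genes, 17.2% have POLR3A within 5000 bp under vehicle and 21.4% under P4, and 16.3% and 33.5% have PR.

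Genes that RNA polymerase III itself transcribes served as the contrast. All 14 such genes with upstream promoters (U6, U6atac, 7SK, RNase P, RNase MRP, Y RNA and selenocysteine tRNA genes) carried POLR3A whichever the treatment, and their median −log10 q came to 474 (vehicle) and 482 (P4), against 37.0 and 29.9 over the 8 snRNA genes with a region. The ranges met only in part. RNY4, a Y RNA gene, had the lowest values of the 14, 16.0 and 28.1, the former under all of the 9 genes' vehicle values but that of RNU4ATAC, and RNU1-1 stood near RNU6-7 (149 and 97.6) and RPPH1 (154 and 125). Of 7 genes with internal promoter elements, 6 had POLR3A, with medians of 438 and 456, and VTRNA2-1 had no region in any list.

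PR medians ran the other way against the genes with upstream promoters. PR was at 4 of the 14 genes with upstream promoters under vehicle and 8 under P4, with a median −log10 q of 3.57 and 6.38, against 15.2 and 23.9 over the 3 and 7 genes here. The 23.9 counts the PR region of the U4 pair, with a −log10 q of 32.0, at both genes, which raises it. Both snRNA medians are the values of RNU1-1, and under vehicle the other values were 4.68 (RNU4-1) and 58.1 (RNU2-1). Under P4, RNU12 (2.30), RNU11 (3.96) and RNU4ATAC (5.67) lay below 6.38, while RNU1-1, RNU2-1 and the U4 pair lay above it. RN7SK had PR values of 4.15 and 9.55, RNU6-8 had 2.43 and 4.63, RNU6ATAC had 2.98 and 4.36 and RNY3 had 4.92 and 24.6, and these 4 were the genes of that list in all 4 lists. The 7 genes with internal elements did not share that order. PR was at 3 of them under vehicle, with a median of 22.3, above that of the snRNA genes, and at 5 under P4, with a median of 10.5, below it. Of these, RN7SL1, RN7SL2 and VTRNA1-2 were in all 4 lists, and VTRNA1-2 had PR values of 22.3 and 143. Among the 579 genes of at most 500 bp with POLR3A under both treatments, 28.3% had PR under vehicle and 49.6% under P4, where the 8 snRNA genes with POLR3A had it at 3 and 7. No test was made of these differences, since the genes are few, some share regions or sequence, and each group has 1 list.

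**Figure D4:**
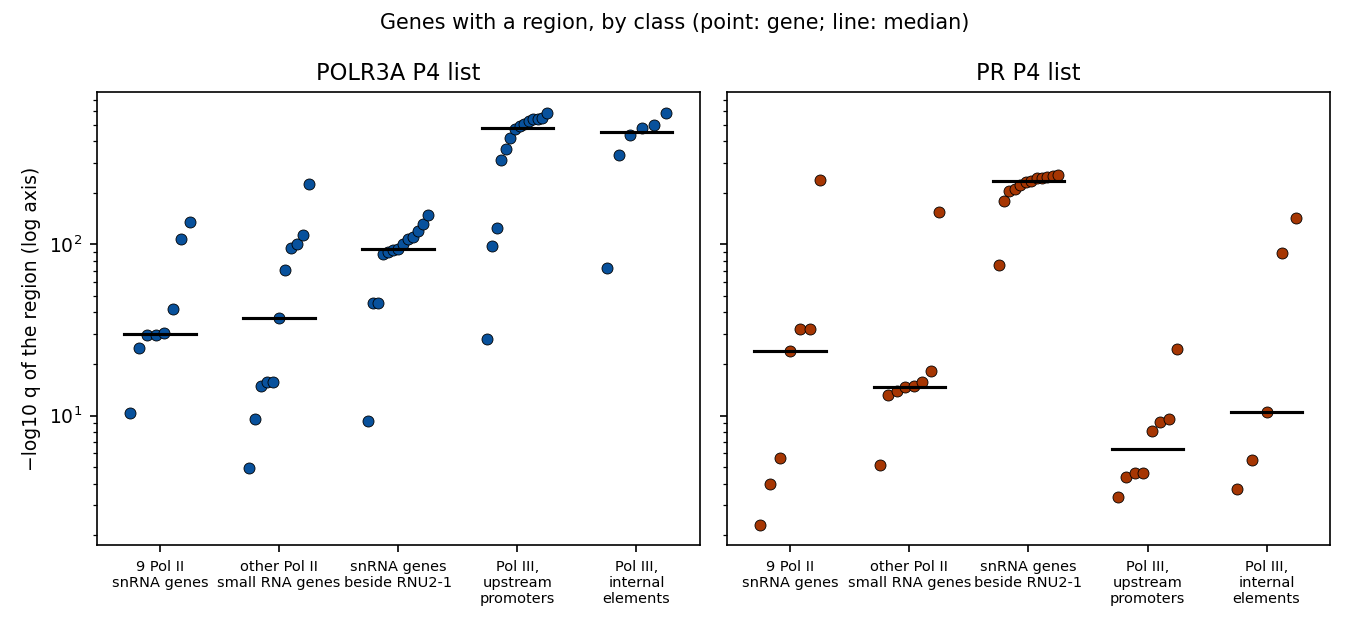
−log10 q (log axis) of the regions over genes of 5 classes in the POLR3A P4 list (left) and the PR P4 list (right), with 1 point per gene that has a region and a line at the median. Of the 9 genes, the 8 with a POLR3A region have a median of 29.9, below the 482 of genes of RNA polymerase III with upstream promoters. The 7 with a PR region have a median of 23.9, above the 6.38 of 8 such polymerase III genes. Of the 7, RNU4ATAC, RNU11 and RNU12 lie below 6.38. RNU4-1 and RNU4-2 share 1 region in each list. The snRNA genes beside RNU2-1 have a PR median of 234.

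Other genes of the same kind were looked at next. POLR3A lay under both treatments at all 11 further small RNA genes that polymerase II reads, with a median −log10 q of 28.5 and 37.1, and PR was at 4 under vehicle and 8 under P4. The U1 genes RNU1-2 and RNU1-3 and the U2 gene RNU2-2 were in all 4 lists, as was SNORD3A, a U3 gene, whose POLR3A values of 199 and 224 exceeded those of RNU1-1. RNU1-4, another U1 gene, had POLR3A values of 99.2 and 94.8 and PR under P4 only, at 14.6. The remaining U5 genes RNU5D-1 and RNU5E-1 had POLR3A (17.5 and 15.7, and 12.6 and 15.7) and no PR, while RNU5F-1 had PR under P4 at 13.1. RNU7-1, for the U7 RNA of histone mRNA processing, had the weakest POLR3A of the 11, 2.93 and 4.95.

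Genes named as snRNA pseudogenes were rarely called. Of 482 of them, POLR3A regions lay over 1.24% under vehicle and 2.28% under P4, and PR regions over 1.24% and 3.32%. The 3 in all 4 lists were RNU1-27P, RNU1-28P and RNU1-103P. RNU1-27P had POLR3A values of 176 and 201 and RNU1-28P of 187 and 183, higher than RNU1-1, and RNU1-28P had PR values of 41.9 and 120. Of 25 U1 variant genes, 16 had POLR3A under vehicle and 15 under P4, 7 and 11 had PR, and 8 had no region. U1 copies share most of their sequence, so single values within this group are uncertain, that of RNU1-1 included.

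**Figure D5:**
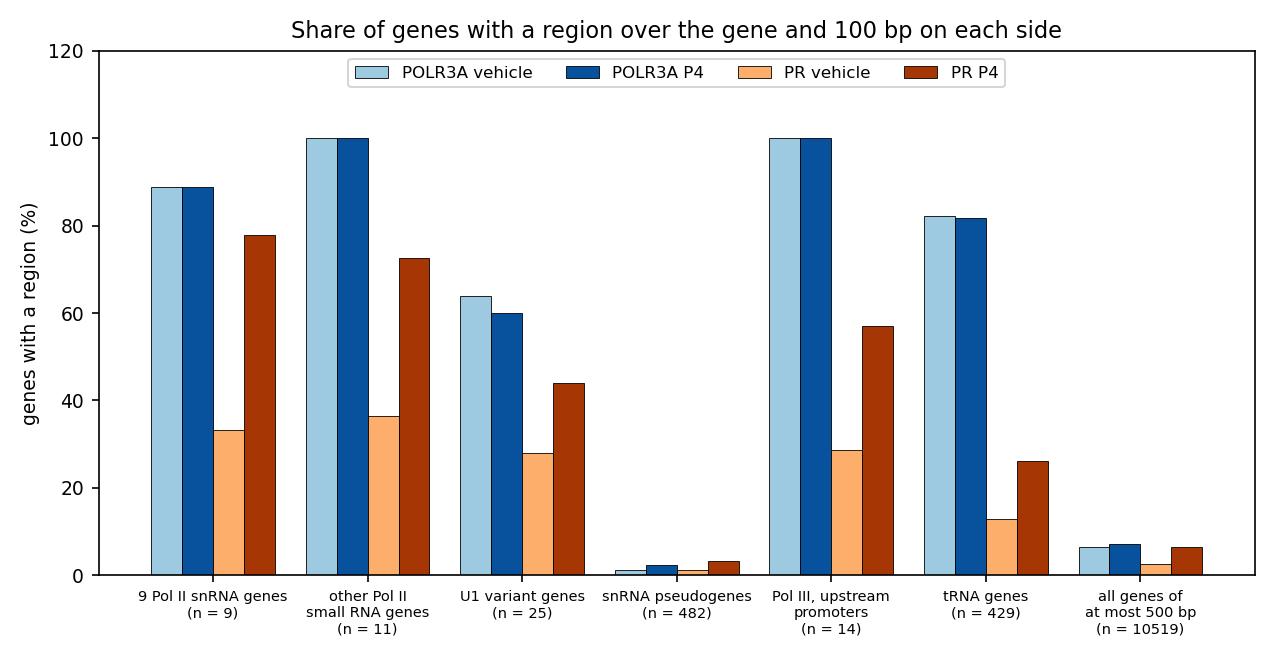
Percentage of genes with a region over the gene and 100 bp on each side (y axis) in 7 classes of genes, with 1 bar per list and the number of genes under each class. The 9 genes reach 88.9% in both POLR3A lists, 33.3% for PR under vehicle and 77.8% for PR under P4, and snRNA pseudogenes stay at or under 3.32%.

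Regions at the genes of proteins that act on snRNA genes were counted as well. The list held 26 genes for SNAPc subunits, POU2F1, ZNF143, SP1, TBP, the elongation factors ELL, ICE1 and ICE2, and Integrator subunits, which cut the ends of snRNA precursors, and the promoter table gave a start for 21. POLR3A regions lay within 1 kb of the start of 13 under vehicle and 16 under P4, against 30.6% and 32.8% of all 15812 protein-coding genes with a start in that table. PR regions lay there at 10 and 18, against 22.7% and 48.4%. SNAPC5, SP1, ICE2, INTS1, INTS2, INTS3, INTS7, INTS12 and INTS13 had a region of all 4 lists at their starts, and SNAPC2 and INTS11 had none. SNAPC1 lacked only POLR3A under vehicle, and POU2F1 and INTS14 lacked only PR under vehicle. SNAPC3, ZNF143, ICE1 and INTS4 had both antibodies under P4 only, and ELL had PR under P4 only. POLR3A lay at the starts of TBP and INTS6 under vehicle only; TBP had PR under P4 only and INTS6 had no PR.

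By the rule for likeness, the short genes whose percentiles in the 4 lists came closest to the median of the 9 genes (98.1 and 98.5 for POLR3A, 0 and 56.1 for PR, with 0 where there was no region) were the tRNA genes TRY-GTA5-1, TRW-CCA3-3, TRW-CCA4-1 and TRV-AAC2-1 and the vault RNA gene VTRNA1-3. Their largest difference from that median in any of the 4 lists was 1.5 to 1.78 percentile points. At the top of a list a small gap in percentile can stand for a large gap in score. VTRNA1-3 had POLR3A −log10 q values of 500 under vehicle and 478 under P4. The medians over the 8 snRNA genes with a region were 37.0 and 29.9, so the likeness holds for percentiles only. TRY-GTA5-1 had percentiles of 99.6 and 99.8 for POLR3A, none for PR under vehicle and 57.6 for PR under P4.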

How the data were processed

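The deposited values were 4 region lists, 1 for each antibody and treatment, which the replicates of a group share. Per the submitters' processing notes, cutadapt, Bowtie2 and MACS2 were used and the build was hg38; versions, parameters, controls and pooling are not given in the sources used here. The deposited fold enrichment is a ratio, the deposited p- and q-values are on the −log10 scale, and the deposited display score and −log10 p were not used. Regions on chromosomes 1 to 22 and X were kept, with a minimum overlap of 1 bp with a gene. Of the RefSeq gene table (GRCh38.p14), 58419 genes were kept and 679 on alternate sequences left out. Python 3.11.15 and pandas 2.3.3 were used. Counts over 10519 short genes equalled those of bedtools 2.31.1 in 4 of 4 lists, and 200 of 200 regions planted in simulated data were recovered. Each planted region covered a whole gene, so that recovery does not bear on regions near the edge of the window. Depth is unknown. The genes, lists and rules were chosen with earlier results of these data known. Named were the 9 genes, listed genes in all or no lists, up to 5 others per list, and the 5 closest by percentile; other genes named were chosen after their values were seen. Alternatives varied the window, the −log10 q, the list length, the summit rule and the unit counted.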

Additional observations from a re-analysis of the deposited data

How the results depend on the processing

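POLR3A counts stayed between 6 and 9 genes under all 10 alternatives in each list, none of which moved them by over 1.5 times. Several could not have done so. Wider windows cannot take a count of 8 of 9 that far, nor can merging neighbours or leaving out RNU1-1 and RNU2-1. Equal list length left the shorter vehicle list as it was. Both POLR3A lists had 9 with 5000 bp on each side, where 17.2% (vehicle) and 21.4% (P4) of short genes had a POLR3A region. At a −log10 q of at least 10 both had 8, against 4.65% and 4.59%. In an alternative chosen after seeing the data, without RNU1-1 and RNU2-1, the count was 6 of 7 in both lists. With the summit inside the window, the P4 count was 6 of 9 (5.32%). The PR vehicle count of 3 (2.56% of short genes) was 7 with 500 or 1000 bp on each side (4.45% and 6.08%), 8 with 5000 bp (16.3%) and, in an alternative chosen after seeing the data, 1 without RNU1-1 and RNU2-1. The PR P4 count of 7 (6.49%) was 4 at a −log10 q of at least 10 (2.11%), 3 with the summit inside the window (3.34%) and 4 with lists of equal length (2.6%). Both counts of 4 included RNU4-1 and RNU4-2, which shared 1 region. By fold, the median percentiles were 98.9 and 99.3 for POLR3A and 76.7 and 80.8 for PR, and with 500 bp on each side the PR vehicle median was 41.0 over 7 genes. With summits within 200 bp of the gene, the median distance from the midpoint was 35.5 bp in place of 40.5 and 34.8 in place of 60.5 for POLR3A, and 106 in place of 214 for PR under P4. The cause was not tested, except that several alternatives act by construction. Wider windows can only raise a count. Fewer genes, shorter lists, a stricter −log10 q and the summit rule can only lower it. Keeping summits within 200 bp leaves out the far ones. No paired analysis was possible because each group has 1 list, and leaving out single replicates was not possible either. Unknown depth limits every comparison between lists.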
